A study of Mus musculus with 6 samples.

Results

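The membrane-spanning 4A (Ms4a) genes form a cluster of small membrane protein genes, and 5 of them, Ms4a6c, Ms4a6b, Ms4a6d, Ms4a3 and Ms4a2, were followed here through the gene table and the splice junction table of common myeloid progenitors. The members were the rows whose gene name was one of these 5, among 13932 genes in the table. The family was selected on measured values of the same comparison, namely the lower Ms4a6c level in cells carrying mutant U2AF1. The gene levels of the members are therefore given as a description. The junction shares come from the same 6 libraries, and their p-values say where these junctions stand in the whole junction table. They are not independent support for the choice of the family.

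Common myeloid progenitors are bone marrow cells that can form granulocytes, monocytes, red cells and platelets. They were sorted as lineage-negative, c-Kit+, Sca-1-, CD34+ and Fcgamma- cells of donor origin from mice transplanted with transgenic marrow. The U2AF1 protein, as the smaller partner in the U2AF splicing factor, contacts the AG at the 3' end of an intron, and S34F is a recurrent substitution in myelodysplastic syndromes. All mice received doxycycline chow for 5 days, beginning more than 6 weeks after transplantation, and both donor genotypes carried the rtTA transactivator that the drug switches on. The mutant group was U2AF1(S34F)/rtTA and the control group U2AF1(WT)/rtTA, so the control also carried an induced transgene, that of the wild-type protein. There were 3 libraries per genotype, each from the pooled marrow of 4 to 5 mice. The genotypes follow the sample titles, because the genotype entry among the characteristics named S34F even for the WT libraries.

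MS4A proteins cross the membrane several times, with both ends in the cytoplasm, and many of them sit beside receptors of blood cells. The best known is CD20, the product of Ms4a1 on B cells. Ms4a2 encodes the beta chain of the high-affinity IgE receptor of mast cells and basophils, which amplifies the signal of that receptor. Ms4a3, also known as HTm4, marks granulocyte and monocyte progenitors in the mouse, and its human protein binds the phosphatase KAP (Cdkn3), which acts on cyclin-dependent kinases. The Ms4a6 genes are expressed in myeloid and lymphoid cells, and their functions are less well defined.

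The 5 genes lie within one stretch of chromosome 19 (build mm9). Ms4a6c (ENSMUSG00000079419) is at chr19:11543858-11556687 and Ms4a6b (ENSMUSG00000024677) at chr19:11591002-11605746, both on the plus strand. Ms4a6d (ENSMUSG00000024679, chr19:11661094-11679339), Ms4a2 (ENSMUSG00000024680, chr19:11690013-11698209) and Ms4a3 (ENSMUSG00000024681, chr19:11703987-11715341) are on the minus strand. The coding sequences of Ms4a6c and Ms4a6b were 86.3% identical over 644 aligned nt, and that of Ms4a6d was 79.7% identical to Ms4a6c and 81.8% to Ms4a6b. Ms4a3 and Ms4a2 were 62.3% to 63.9% identical to the Ms4a6 genes. The annotated coding transcripts of the 5 members shared no identical run of 100 nt, the read length, so a read without mismatches over its whole length belongs to 1 member.

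The sequences that matter below are the ends of 3 sets of introns, where the bases just before the exon differ between competing sites. Each line gives the plus or minus strand 5′ to 3′ in mm9, with the last 3 intron bases in capitals. The first set is joined to the donor that ends exon 6 of Ms4a6c, and shows the acceptor of the annotated last exon, that of an annotated exon of 4 nt, and an unannotated acceptor 639 nt past the annotated end of the gene.
Ms4a6c last exon, chr19:11555672-11555701, plus strand: aaccacatattttctttgttcTAGaatgtg
Ms4a6c exon of 4 nt, chr19:11555176-11555205, plus strand: tgtgatgaattcacttgtgttCAGgatgct
Ms4a6c past the gene end, chr19:11557302-11557331, plus strand: atcatgtaactactcctccttCAGggaagg
The second set is a pair of acceptors 4 nt apart that Ms4a6c and Ms4a6b share at the same place, with both sites in capitals.
Ms4a6c pair, chr19:11552638-11552671, plus strand: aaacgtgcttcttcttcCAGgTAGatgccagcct
Ms4a6b pair, chr19:11601170-11601203, plus strand: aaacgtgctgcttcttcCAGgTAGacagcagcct
The third set is the acceptor of the last coding exon of Ms4a3 and an unannotated one 34 nt inside that exon.
Ms4a3 annotated, chr19:11704241-11704270, minus strand: gagaactgatgtctcattttcTAGgcaatt
Ms4a3 unannotated, chr19:11704207-11704236, minus strand: cacctcctaattctgtggagtCAGgaatac

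The libraries held 46827909 to 94562984 reads in genes and 41003848 to 82730420 in junctions, with WT replicate 3 the deepest. WT replicate 3 also stood apart in the junction table. It had no read at 361 junctions that had at least 10 reads in each of the other libraries, against 36 to 88 such junctions for the other libraries. Both replicate 1 libraries carried reads of the Y-linked gene Ddx3y (5714 and 5580 counts), and the other 4 libraries had 0. U2af1 itself was at 119, 136 and 122 CPM (read counts scaled to 1000000 per library, after a correction of library size) in S34F, against 105, 125 and 128 CPM in WT, and gene counts do not tell its alleles apart. Of the genes behind the sort gate, Kit was at 92.4 to 209 CPM, Cd34 at 695 to 904 CPM and Ly6a, which encodes Sca-1, at 1.08 to 1.84 CPM over the 6 libraries. Although the gate was Fcgamma-, RNA of the Fc gamma receptor genes Fcgr3 and Fcgr2b was present, at 33.4 to 111 CPM and 35.4 to 51.3 CPM.

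Ms4a6c was the member whose libraries separated by genotype. It stood at 75.3, 76.5 and 80.9 CPM in S34F replicates 1 to 3 and at 138, 159 and 152 CPM in WT replicates 1 to 3. Every S34F library was below every WT library, and the spread within a genotype was small beside the gap (77.6 ± 2.96 against 149.6 ± 10.4 CPM, SD, n = 3 each). The log2 fold change was -0.95 (standard error 0.09), and the log2 ratio was -0.88, -1.05 and -0.91 between libraries of the same number. By unadjusted p, Ms4a6c ranked 2 among 13905 genes in edgeR's quasi-likelihood test, with an adjusted p of 0.0677, where the threshold was 0.05. This rank is part of what led to the choice of the family.

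Tools differed on that call. edgeR called 0 of the 13905 genes tested (0%), none of the members among them, while 1265 genes had an unadjusted p under 0.05. DESeq2 called 96 of 13927 genes (0.689%), with Ms4a6c the only member called (adjusted p = 1.88e-13). The authors' deposited table called 86 of 13643 genes (0.630%) and gave Ms4a6c a log2 fold change of -0.87 with an adjusted p of 1.73e-13. All S34F libraries were below all WT libraries for 1178 genes (8.47%), and for 1 of the 5 members. In edgeR's test the adjusted p of Ms4a6c was 0.0066 without WT replicate 1 and 0.0214 without both replicate 1 libraries. In these settings edgeR called 1172 and 599 genes. Without any other single library the adjusted p of Ms4a6c was 0.186 to 0.516. In DESeq2 it was at most 5.06e-08 whichever library was left out, an alternative added after the data were seen.

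**Figure D1:**
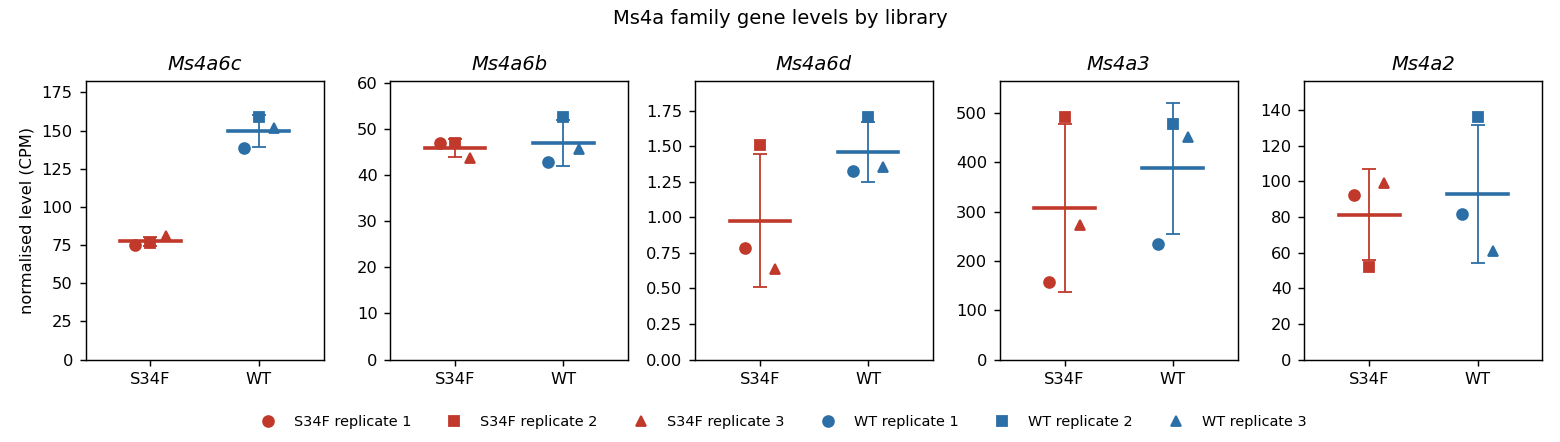
Normalised level (CPM, each panel with its own axis from 0) of the 5 members in each library, with the S34F libraries in red and the WT libraries in blue. Horizontal bars are the means and error bars the SD of 3 libraries; the Ms4a6c libraries of the genotypes do not overlap, while those of the other 4 members do.

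Ms4a6b, the closest relative of Ms4a6c, was at a similar level in all libraries. The S34F libraries had 47.0, 47.0 and 43.7 CPM and the WT libraries 42.9, 52.6 and 45.7 CPM. The highest library was 1.23 times the lowest, and the S34F values lay inside the range of the WT values. Its log2 fold change was -0.03 (standard error 0.11), with an adjusted p of 0.922 in edgeR's test. The sign of so small a value rested on 1 library, since the log2 fold change was 0.05 without WT replicate 2.

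Ms4a6d, the third Ms4a6 gene of the set, was barely expressed. The S34F libraries had 0.785, 1.51 and 0.634 CPM and the WT libraries 1.32, 1.70 and 1.35 CPM, from 32 to 127 reads per library. The groups overlapped through S34F replicate 2. The log2 fold change was -0.58 (standard error 0.38), and it reached -1.04 without S34F replicate 2 without passing edgeR's threshold.

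Ms4a3, the granulocyte and monocyte progenitor gene, was the most abundant member and varied more within a genotype than between genotypes. Its level was 157, 491 and 274 CPM across the S34F libraries, and 235, 478 and 451 CPM across the WT libraries. S34F replicate 2, WT replicate 2 and WT replicate 3 were the high libraries, and the highest was 3.12 times the lowest. The log2 fold change of -0.34 (standard error 0.42) moved between -0.85 without S34F replicate 2 and -0.02 without S34F replicate 1.

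Ms4a2, the beta chain of the IgE receptor, stood at 92.3, 51.9 and 99.2 CPM with S34F, and 81.8, 136 and 61.0 CPM with WT. The lowest library was S34F replicate 2 and the highest WT replicate 2, and the groups overlapped. Its log2 fold change of -0.20 (standard error 0.33) had no stable sign, as it was 0.04 without S34F replicate 2 and 0.18 without WT replicate 2.

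To compare levels between the genes, the authors' deposited FPKM values, which divide by transcript length, were used. In each of the 6 libraries the order was Ms4a3, Ms4a6c, Ms4a2, Ms4a6b and Ms4a6d. Ms4a3 was at 77.1 to 306 FPKM, Ms4a6c at 19.3 to 59.5, Ms4a2 at 9.67 to 32.4, Ms4a6b at 8.49 to 15.6 and Ms4a6d at 0.230 to 0.964. The ranges over libraries overlapped between Ms4a6c and Ms4a2 and between Ms4a2 and Ms4a6b. The FPKM scale itself was shifted between genotypes: over 10050 genes with a mean of at least 1 FPKM, the median log2 ratio of the S34F to the WT mean was -0.33. Ms4a6c had -1.18 and Ms4a6b -0.50 on this scale, which are to be read against that shift.

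Of the 15 other family genes listed, 5 were in the gene table. Ms4a4c, a neighbour of Ms4a6c, had 6.66, 4.08 and 6.63 CPM with S34F, against 10.2, 12.6 and 12.8 CPM with WT. Its groups did not overlap, and its log2 fold change of -1.03 (standard error 0.23) was called by DESeq2 (adjusted p = 0.00592) and not by edgeR (adjusted p = 0.509). Ms4a4b, studied mainly in T cells, averaged 1.75 ± 0.591 CPM with S34F, against 3.42 ± 0.507 CPM with WT (SD, n = 3 each), also without overlap, and was called by neither tool. The coding sequences of these 2 genes are 91.8% identical and their annotated transcripts share runs of 100 nt, so their counts may hold reads of each other. Ms4a1, the CD20 gene, was at 0.257 to 1.06 CPM over all libraries. The related genes Tmem176a and Tmem176b on chromosome 6 had log2 fold changes of 0.04 and 0.18, neither of them called.

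Reads out of exon 6 of Ms4a6c, the exon before the last, were distributed differently in S34F. The annotated last exon took 83.2%, 83.1% and 81.4% of these reads in S34F replicates 1 to 3 and 93.0%, 94.6% and 95.4% in WT replicates 1 to 3. All S34F libraries were lower, at 82.6% ± 0.991 against 94.3% ± 1.21 (SD, n = 3 each), and the shares rested on 296 to 323 reads per library in S34F and 742 to 1894 in WT. The junction to this exon ends at position 11555696, after TAG, as printed above.

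The acceptor of the annotated exon of 4 nt, which follows CAG at position 11555200, took a larger share in S34F. It took 6.15%, 7.43% and 7.12% of the reads in S34F and 1.62%, 1.28% and 1.00% in WT. The exact (Clopper-Pearson) 95% intervals ran from 3.74% to 11.0% over the S34F libraries and from 0.605% to 2.81% over the WT libraries, without overlap. The intervals cover counting error only. In reads, the site had 19, 22 and 23 in S34F and 12, 15 and 19 in WT, while the annotated last exon had 257, 246 and 263 in S34F and 690, 1113 and 1806 in WT. In the annotation, one Ms4a6c transcript ends with these 4 bases, all coding and with no stop codon annotated. Junction reads mark only where this exon starts. Its length of 4 nt is that of the annotation, and where it ends in these cells was not measured. The other transcript ends in the last exon of 992 nt, whose first 4 bases are coding.

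A further acceptor after CAG, at position 11557326 beyond the annotated gene, took 4.53%, 8.11% and 3.72% of the reads in S34F and 1.35%, 2.30% and 2.06% in WT. Its groups did not overlap either, although the intervals of single libraries did. The remaining 3 acceptors of this donor, at 11555137, 11555375 and 11559761, had 0 to 4.64% of the reads and overlapped between genotypes. They follow AAG, AAG and TAG, in this order. The site at 11555137 took 3.88%, 0.676% and 4.64% in S34F and 0.809%, 0.510% and 0% in WT, with overlap through S34F replicate 2. WT replicate 3 had no read at 11555137, where the exact 95% interval for 0 of 1894 reads reaches 0.195%.

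**Figure D2:**
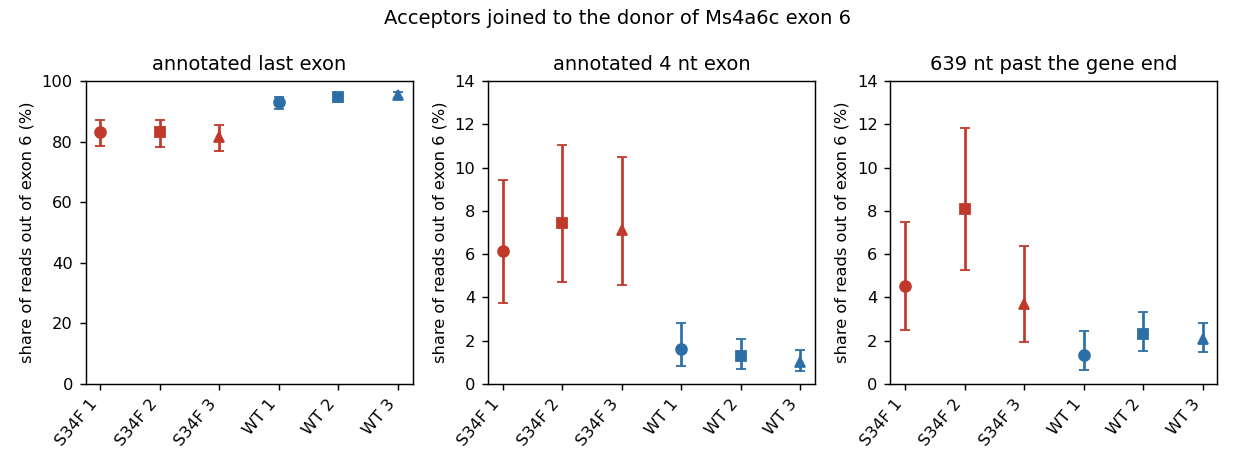
Share (%) of the junction reads leaving Ms4a6c exon 6 that joined each of 3 acceptors, by library, with exact 95% binomial intervals (counting error only). The left axis runs to 100% and the other axes to 14%; the last exon is lower in all S34F libraries (red) than in all WT libraries (blue), and both other acceptors are higher.

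DESeq2, fitted across all acceptor choices, called the shift to the exon of 4 nt (log2 odds ratio 2.55, adjusted p = 9.90e-05) and the shift away from the last exon (-1.85, adjusted p = 0.000253). These were the 2 calls among 27 acceptor choices of the members, where DESeq2 called 381 of 29134 choices (1.31%), and both count reads of the same donor. In the same added alternative, both were called again by DESeq2 without any one of the 6 libraries, with adjusted p values up to 0.0185 for the exon of 4 nt and up to 0.0482 for the last exon. Of the 29709 acceptor choices in edgeR's quasi-likelihood test, 0 passed (0%), although 2227 had unadjusted p-values below 0.05. Its adjusted p was 0.430 for the exon of 4 nt and 0.434 for the last exon, at unadjusted values of 0.000217 and 0.000878.

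The authors' deposited DEXSeq test compares each junction with the rest of its gene. It called 512 of 150691 junctions (0.340%) and 3 of the 60 junctions of the members. Of these 3, the authors' table gave the Ms4a6c junction to the exon of 4 nt a log2 fold change of 1.98 (adjusted p = 0.00469) and that to the last exon -0.74 (adjusted p = 0.00173). The third was the Ms4a6b junction from 11593164 to 11594813, with -0.50 (adjusted p = 0.00551).

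The last junction of Ms4a6c differed by a larger ratio between genotypes than the first. Scaled to 1000000 junction reads per library, the junction of exons 1 and 2 had 22.5, 18.2 and 23.2 in S34F and 36.4, 41.6 and 45.0 in WT, a log2 ratio of the means of -0.95. The junction of exon 6 with the last exon had 5.76, 6.00 and 6.12 in S34F and 14.8, 17.8 and 21.8 in WT, a log2 ratio of -1.61. The groups did not overlap at either junction. How many of all junctions lack overlap on this scale was not counted.

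Ratios within the gene do not depend on library scaling. Reads joining exon 6 to the last exon were 0.556, 0.547 and 0.484 of the reads entering exon 6 in S34F. In WT they were 0.702, 0.804 and 0.968, without overlap. Reads leaving exon 6 to any acceptor were 0.669, 0.658 and 0.595 of the reads entering exon 6 in S34F and 0.755, 0.850 and 1.02 in WT. All S34F libraries were lower, and the exact permutation test gave the smallest p that 3 libraries against 3 allow, 0.1. How many genes lack overlap in such ratios was not counted, so the ratios are a description. Reads entering exon 6 over reads joining exons 1 and 2 came to 0.460, 0.604 and 0.545 with S34F, against 0.580, 0.533 and 0.501 with WT, with overlap (exact permutation p = 1).

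**Figure D3:**
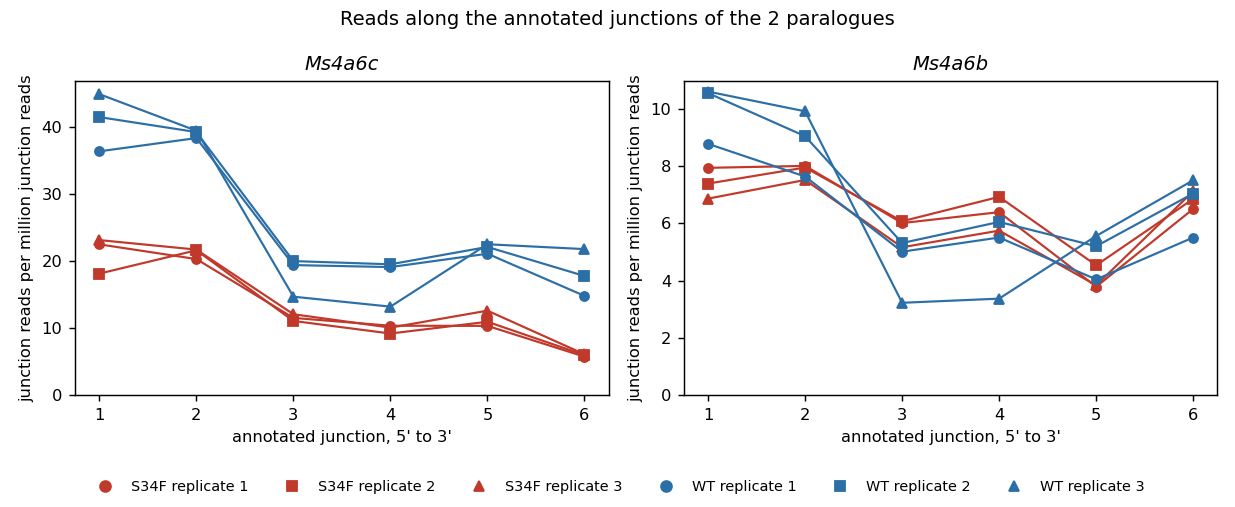
Reads per 1000000 junction reads of the library at the 6 successive annotated junctions of Ms4a6c (left) and Ms4a6b (right), from 5' to 3', 1 line per library with S34F in red and WT in blue. For Ms4a6c the S34F lines lie below the WT lines at every junction; for Ms4a6b the lines cross, and WT replicate 3 (blue triangles) is low at junctions 3 and 4.

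Ms4a6b showed its own pattern along the gene. Its first junction in the table, which lies before the start codon and was the third called by the authors' DEXSeq test, had 7.94, 7.39 and 6.86 reads per 1000000 junction reads in S34F and 8.78, 10.5 and 10.6 in WT, without overlap. The next junction, from 11594975 to 11596161, had 8.01, 7.95 and 7.52 with S34F, against 7.64, 9.04 and 9.91 with WT, and there the groups overlapped. Its last junction had 6.50, 6.85 and 7.12 in S34F and 5.51, 7.04 and 7.51 in WT. The ratio of the last to the first was 0.819, 0.927 and 1.04 in S34F and 0.627, 0.668 and 0.708 in WT, with no overlap and an exact permutation p of 0.1, the smallest possible. The share of all junctions or of all such ratios without overlap was not counted, so these values are a description. WT replicate 3 was low in the middle of both paralogues: reads entering the exon of 57 nt, over those of the first junction, were 0.304 in Ms4a6b and 0.327 in Ms4a6c, against 0.482 to 0.822 in the other libraries.

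The 4 nt acceptor pair is where the paralogues can be compared base by base. The printed windows were identical at 30 of 34 positions, and both hold CAG at the first site and TAG at the second, which is unannotated in both genes and shifts the exon start by 4 nt. In Ms4a6b the second site took 7.12%, 7.40% and 10.8% of the reads of the donor at 11598456 in S34F and 4.63%, 3.62% and 2.45% in WT. All S34F libraries were higher (8.43% ± 2.03 against 3.57% ± 1.09, SD, n = 3 each). The choice was called by neither tool over the whole table, with a log2 odds ratio of 1.31 and adjusted p values of 0.627 in edgeR and 0.271 in DESeq2.

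In Ms4a6c the second site of the pair took 1.49%, 4.06% and 2.91% of the reads in S34F and 2.31%, 1.05% and 3.35% in WT. These groups overlapped, and the means were 2.82% and 2.24%. The difference between the paralogues was not tested. In read numbers, the Ms4a6b site had 23, 23 and 31 reads in S34F and 13, 15 and 7 in WT, so WT replicate 3, the library that was low in the middle of the gene, also gave the lowest share.

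**Figure D4:**
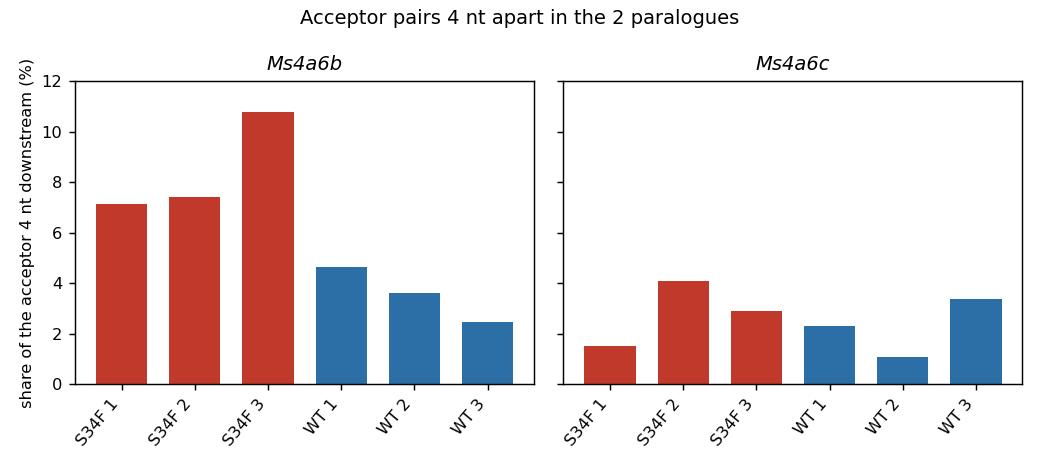
Share (%) of the acceptor 4 nt downstream in the acceptor pair of Ms4a6b (left) and of Ms4a6c (right), 1 bar per library, S34F red and WT blue, on a shared axis from 0. The Ms4a6b bars are 7.12% to 10.8% in S34F and 2.45% to 4.63% in WT; the Ms4a6c bars overlap.

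Ms4a3 had an acceptor that was used in some libraries and nearly unused in others. The unannotated acceptor at 11704212, 34 nt inside the last coding exon, had 1, 337 and 1 reads in S34F and 2, 512 and 590 in WT. It took 0.067%, 7.01% and 0.038% of the reads in S34F and 0.081%, 7.39% and 6.87% in WT. S34F replicate 2, WT replicate 2 and WT replicate 3 used it, the same 3 libraries in which the gene was most abundant, at 451 to 491 CPM against 157 to 274 CPM. The annotated acceptor had 1490 to 2600 reads in the other 3 libraries. Across the table, 5 of 29709 acceptor choices had at least 5% in these 3 libraries and under 0.5% in the others, and 21 had the reverse.

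**Figure D5:**
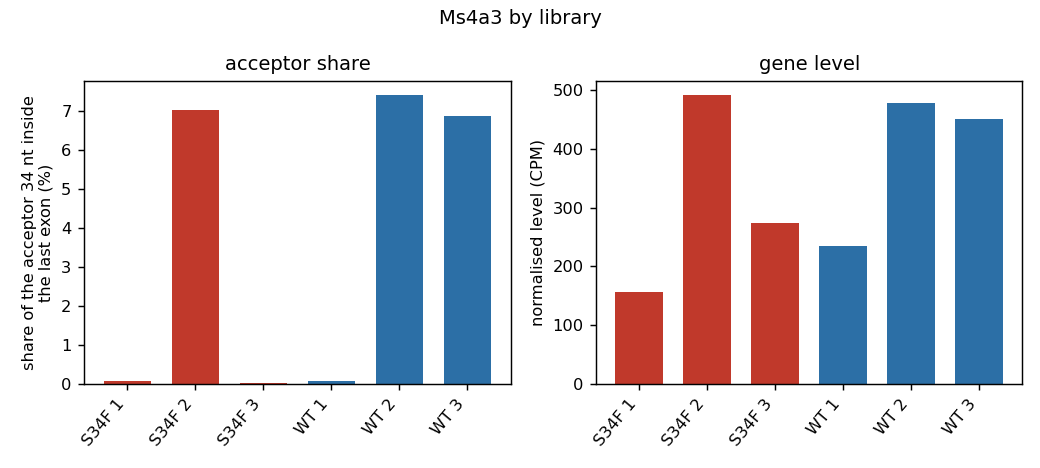
Share (%) of the Ms4a3 acceptor 34 nt inside the last coding exon (left) and Ms4a3 level in CPM (right), 1 bar per library, S34F red and WT blue, both axes from 0. The share is about 7% in S34F replicate 2, WT replicate 2 and WT replicate 3 and under 0.1% in the other 3 libraries.

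The other splicing choices of Ms4a3 that could be tested overlapped between genotypes. The acceptor of the 110 nt exon at 11713789 took 91.2% to 94.9% of the reads from the first donor in S34F and 92.8% to 95.5% in WT. Inclusion of the exon from 11713680 to 11713789 was 95.2% to 97.4% in S34F and 96.5% to 98.0% in WT. None of the 4 cassette choices of Ms4a3 was called by either tool. Some rare junctions, which took too small a share to be tested as choices, did not overlap. That from 11705935 to 11710301, which skips an exon, had 15, 35 and 15 reads in S34F and 5, 14 and 20 in WT. Scaled to 1000000 junction reads this was 0.336, 0.854 and 0.349 with S34F, against 0.108, 0.224 and 0.242 with WT, and the authors' deposited table gave it a log2 fold change of 1.75 (DEXSeq adjusted p = 0.0746). The junctions from 11710436 to 11712676 and from 11713823 to 11715157 were lower in all S34F libraries on this scale. Their log2 ratios of the means were -1.59 and -1.51, from 0 to 57 reads, and neither passed the authors' DEXSeq threshold. How many of all junctions lack overlap on this scale was not counted, so these rare junctions are given as a description.

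Ms4a2 was spliced in several forms in every library. The exon from 11696533 to 11696667 was included at 60.5%, 64.8% and 61.9% in S34F and 61.0%, 57.6% and 63.7% in WT, with overlap. A rare junction that skips the exon from 11692906 to 11693004 had 2, 1 and 2 reads in S34F and 4, 11 and 8 in WT. Its share among the acceptors of the donor at 11693344 was 0.673%, 0.694% and 0.664% in S34F and 1.29%, 1.76% and 2.42% in WT. The groups did not overlap, yet the read numbers were small, and neither tool called it (edgeR adjusted p = 0.652). The rare Ms4a2 junctions from 11698050 to 11694163 and to 11696667 had 7 to 48 reads in the other libraries and 0 in WT replicate 3.

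Over the family, 6 of 27 acceptor choices had shares that did not overlap between genotypes, against 17.0% of all 29709 choices, a share near the background. They were 3 of Ms4a6c, 1 of Ms4a6b and 2 of Ms4a2, and choices of the same donor share reads. Among 19 donor choices of the members, edgeR called none, where it called 3 of 30084 (0.00997%), and DESeq2 called none, where it called 242 (0.804%). For 2 of the 19, edgeR's unadjusted p was below 0.05, as for 1927 of all 30084, and these 2 are both forms of the Ms4a2 choice at the acceptor 11692061. Of the 9 cassette exons of the members, edgeR called none (0 of 8595 in the whole table, 0%, with 876 at an unadjusted p under 0.05), and DESeq2 called none (115 of 7928 in the whole table, 1.45%). The 6 deposited Ms4a6d junctions held no competing donor, acceptor or skipping junction, so there was no choice to test. Of the 60 junctions of the members, 5 were at 0 in WT replicate 3 alone, against 1 to 3 in any other library.

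The genes most like each member over the 6 libraries were found by the root mean square difference of centred log2 CPM, among 10133 genes with a mean of at least 5 CPM. Because the likeness to Ms4a6c includes its difference between genotypes, it is a description. For Ms4a6c they included Arl11, a small GTPase-like gene, and Cst3, which encodes cystatin C. Cst3 had 173, 205 and 231 CPM with S34F, against 294, 337 and 347 CPM with WT. For Ms4a3 they were Hp, which encodes haptoglobin, the growth factor gene Vegfa and Alas1, an enzyme of haem synthesis. Hp had 54.6, 167 and 96.0 CPM with S34F, against 94.0, 139 and 145 CPM with WT, with S34F replicate 1 lowest and S34F replicate 2 highest, as for Ms4a3. For Ms4a6b they were Dcun1d5, Snapc3 and N4bp2l2, and for Ms4a2 they were Zfp882, Lipo1 and BC002163. Ms4a6d was below the level needed.

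The partners of Ms4a2 in IgE receptor signalling showed little difference between genotypes. None of 15 genes was called by either tool, and the median log2 fold change was -0.07, beside -0.01 over all genes. The lowest p belonged to Btk, a kinase downstream of the receptor (-0.54), and Lat2, an adaptor (-0.38). Fcer1a, the IgE-binding chain, had 36.4, 28.2 and 71.9 CPM with S34F, against 43.8, 89.8 and 48.3 CPM with WT. Of the mast cell and basophil genes, 8 of 12 were in the table, and the mast cell proteases Cma1, Mcpt4, Tpsab1 and Tpsb2 were not among them. None of the 8 was called (median -0.10). Their summed level was 563, 398 and 811 CPM in S34F and 587, 746 and 437 CPM in WT. Within each genotype the lowest and the highest sum fell in the same libraries as the lowest and highest Ms4a2 level. Mcpt8, a basophil protease, had 89.2, 45.4 and 194 CPM with S34F, against 78.1, 110 and 55.7 CPM with WT, and the part of such cells in the Ms4a2 level was not tested.

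The 6 cell cycle genes that stand near Ms4a3 by its human protein's binding partners had a median log2 fold change of -0.02, and none was called. Ccne1, a cyclin of the G1/S transition (0.24), and Cdk1, the mitotic kinase (-0.12), had the lowest p. Cdkn3 itself had 10.8, 8.95 and 9.90 CPM with S34F, against 10.1, 8.37 and 9.02 CPM with WT. Of the neutrophil granule genes, 10 of 11 were measured and none was called (median 0.14), with Lcn2 (0.48) and Ngp (0.50) of lowest p. Of the eosinophil genes, 6 of 6 were measured and none was called (median 0.04), with Prg3 at -0.41 and Ear1 at 0.41.

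The marker list with the most genes called was that of dendritic cells and MHC class II. DESeq2 called 7 of its 11 genes lower in S34F and none higher, while edgeR called none of them and 10 of the 11 had an unadjusted p below 0.05 there. The median log2 fold change was -2.02. The summed level was 110, 53.7 and 76.4 CPM in S34F and 394, 193 and 289 CPM in WT, without overlap. The 7 were the MHC class II genes H2-Ab1 (-1.74), H2-Aa (-2.71) and H2-Eb1 (-2.38), their transactivator Ciita (-2.19), the dendritic cell transcription factors Zbtb46 (-2.42) and Batf3 (-2.37), and the dendritic cell receptor Clec9a (-1.97). Of the others, Cd74, the MHC class II invariant chain, had -2.02 with overlapping groups, and Itgax, which encodes CD11c, had 0.70, also with overlap. The part of such cells in the Ms4a6c level was not tested. In bulk RNA, fewer cells of a type and less RNA per cell cannot be told apart.

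Of the monocyte and macrophage markers, none of the 14 measured was called by either tool (median -0.22), with Irf8, a transcription factor of monocyte and dendritic cell lineages (-0.42), and Ly86 (-0.44) of lowest p in edgeR's test. Cd14, a monocyte receptor for lipopolysaccharide, had the lowest unadjusted p of the list in DESeq2 and lay the other way: every S34F library was above every WT library (log2 fold change 1.14). Ccr2, a chemokine receptor gene of monocytes, was at 1.07 with overlapping groups. Their summed level was 2096 to 3147 CPM in S34F and 1891 to 2750 CPM in WT. Of the T and NK cell markers, 4 of 9 were in the table, with Cd3e, Cd3d, Cd3g, Cd8a and Ncr1 absent, and DESeq2 called Klrk1, an activating receptor gene, at -2.05. The median of these 4 was -0.87, and 2 of them, Klrk1 and Cd2, had an edgeR unadjusted p below 0.05. The sums of the 4, 7.12 to 14.7 CPM in S34F, lay below the 15.3 to 16.6 CPM of WT. The lower sum rested on Klrk1, at a mean of 1.61 CPM in S34F and 6.69 CPM in WT. Cd2 was at only 0.129 to 0.405 CPM, and Cd4 (-0.56) overlapped between genotypes. Lck lay the other way (0.19), at a mean of 9.00 CPM in S34F and 7.88 CPM in WT, also with overlap. The part of such cells in the Ms4a6c level was not tested. The B cell markers, 5 of 6 measured, had none called (median -0.30), with Vpreb1 of lowest p (-0.68). None of 13 myeloid transcription factors was called (median -0.10), with Irf4 (-1.14) and Gata1 (-0.54) of lowest p. None of the 8 genes of the sort gate was called (median -0.15), with Fcgr2b at -0.18 and Kit at 0.27.

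In the RefSeq promoter table (GRCm38.p6), 4 of the 5 members had an entry, Ms4a6d being the exception. The 250 bases before each start were searched on both strands for GAGGAAGT (a PU.1 motif), GGAANNGAA (an ETS and IRF composite) and TTGCNNCAA (bound by C/EBP factors). The motif of GATA factors was searched as AGATAA in the same way. Ms4a2 held 3 matches to the last of these, where 9.99% of 32851 promoters held at least 1 and 0.088% held 3 or more. Ms4a3 held 1 match to the C/EBP motif, found in 1.74% of promoters. The other searches of the 4 promoters gave no match, and GAGGAAGT and GGAANNGAA were found in 2.44% and 6.99% of all promoters. A match is a description of the letters only. The first 2 motifs share GGAA, so they can match overlapping bases.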

How the data were processed

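RNA was depleted of ribosomal RNA and sequenced from stranded libraries as paired reads of 100 bp, per the labels' protocols, and reads were aligned to mm9 with TopHat. The tools named, without a role, are DESeq2 1.6.1, Cufflinks 2.1.1, HTSeq 0.5.4p1, TopHat2 2.0.8 and Bowtie2 2.1.0, per the submitters' processing notes. The annotation is not given in the sources used here, nor is whether strand entered the counting. The deposited tables hold raw counts of reads for genes and for junctions. Per the file headers, the authors' gene table also holds p-values and fold changes, as a ratio and as log2, and for each junction DEXSeq log2 fold changes, p-values, a mean count (a coverage signal), a dispersion and a test statistic (scores). FPKM values per gene are the authors' own, and no test used them.

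Gene counts were fitted with edgeR 4.0.16 (R 4.3.3) by the quasi-likelihood F test after TMM scaling, over the 13905 genes that passed its default filter. DESeq2 1.42.0 was the alternative. All tests are two-sided, and adjusted p-values are Benjamini-Hochberg values over the whole table. CPM are counts scaled to 1000000 per library after TMM. For each donor, the reads of each acceptor were tested against those of its other acceptors, likewise donors of an acceptor, and inclusion against skipping for exons of 10 to 1000 nt. Each fit had a term per library, a term for the form and the interaction of form with genotype, which was tested. A choice needed 20 reads in every library, and each form 1% of the reads (2% for cassette exons). A junction is given by the exon bases beside its intron, counted from 1: for 81 of 81 Ms4a junctions the genome held the deposited splice site 1 base inward. The edgeR fits of genes and of acceptor choices were tested on simulated data with known changes. The DESeq2 fits and the fits of donor choices and cassette exons were not. All 5 members and the 3 genes most like each member are named. So are the listed genes past the threshold in either tool, and otherwise the 2 of lowest p per list. A few further listed genes (Fcer1a, Mcpt8, Cdkn3, Cd34, Ly6a, Fcgr3, Cd14, Ccr2, Cd74, Itgax, Cd2, Cd4, Lck) were named after their values were seen. A few genes that this rule selects are not reported here. The members and lists were chosen with earlier results of these data known. Pools of mice are the replicates, and whether donors of marrow were shared between pools is not given in the labels. The precision follows from the depth: intervals of single shares are exact 95% binomial intervals.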

Additional observations from a re-analysis of the deposited data

How the results depend on the processing

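Leaving out 1 library moved the number of genes called between 0 and 1172 in edgeR's test, with 1172 without WT replicate 1, and 599 without both replicate 1 libraries; DESeq2 called 96 genes, and 43 to 2517 with 1 library left out. DESeq2 called 381 acceptor choices, 242 donor choices and 115 cassette exons, where edgeR called 0, 3 and 0. The DESeq2 acceptor count ran from 145 to 655 with 1 library left out, and the edgeR donor count from 0 to 5. With RLE size factors or no filter for genes, or 10 reads in every library for splice choices, the edgeR counts did not change.

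Replicate numbers were not treated as pairs in the main fits. After removal of genotype means, same-numbered libraries correlated at 0.21, 0.27 and 0.02, and differently numbered ones at -0.29 to 0.08. S34F replicate 3 correlated best with WT replicate 1. Both replicate 1 libraries carried Ddx3y reads and no other library did. Whether the numbers mark pairs or batches was not settled. With a replicate block, edgeR called 5 genes and DESeq2 440, and edgeR called 0 donor choices. Ms4a6c had a log2 fold change of -0.95 under the edgeR block (adjusted p = 0.0902).

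Of 123 alternative values for the members' fold changes and 5 splice choices, 114 kept their direction and side of the threshold, 6 passed it newly, all of Ms4a6c, and 3 turned sign: Ms4a6b at 0.053 without WT replicate 2, and Ms4a2 at 0.04 without S34F replicate 2 and 0.18 without WT replicate 2. Over the libraries left out, Ms4a6b ranged from -0.10 to 0.053 and Ms4a2 from -0.42 to 0.18. The cause was not tested. All DESeq2 values with 1 library left out are alternatives added after the data were seen. They were set against the DESeq2 fit of all 6 libraries, not against the edgeR fit. Those of the Ms4a6c level and of its acceptors of the last exon and the exon of 4 nt count among the 114. Each of them had a DESeq2 adjusted p under 0.05, where the edgeR main fit called none. Depth limits Ms4a6d, with 32 to 127 reads per library, and the rare Ms4a2 and Ms4a6c junctions.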
